A study of Homo sapiens with 9 samples.

Results

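Expression of 10 genes of the YAP and TEAD pathway was examined in a human kidney tubule cell line. They are the coactivator genes YAP1 and WWTR1 (which encodes TAZ), the transcription factor gene TEAD1, the regulator genes LATS2, AMOTL1, AMOTL2 and AJUBA, and the target genes CCN1, CCN2 and ANKRD1. The genes were taken by symbol from a table of 62703 genes, where each symbol matched a row, and all 10 passed the filter on low counts that left 18267 genes for testing. The choice rests on gene symbols, but it was made with earlier results of these data known.

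The RNA came from HK-2, a line of human proximal tubule cells transformed with human papillomavirus 16, and was sequenced as 9 libraries in 3 groups. Cells of the MYDGF group (libraries 1, 3 and 4) overexpressed MYDGF, a secreted growth factor, from an adenovirus and were also given aristolochic acid. The aristolochic acid group (libraries 1, 4 and 6) received this plant toxin alone, at 5 µg/ml for 48 h. The untreated group (libraries 1, 2 and 3) received neither. The genotype label is overexpression of MYDGF in the first of these groups and wild type in the others, and the protocol gives serum starvation for 12 h and medium with 5% serum. The labels name no control vector, vehicle or matched time in culture, so MYDGF cannot be told apart from the adenovirus, nor aristolochic acid from its solvent or from time in culture. Nothing states that the replicates are separate cultures, and so a p-value here reflects the spread among these libraries alone, possibly a technical one. The cell line entry is HK-2 throughout, but the treatment text reads HK-3 for MYDGF 3 and untreated 2 and HK-4 for MYDGF 4 and untreated 3.

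YAP and TAZ carry no DNA-binding domain and act on genes through TEAD factors. In the Hippo pathway, the kinases MST1 and MST2 (encoded by STK4 and STK3) activate LATS1 and LATS2, which phosphorylate YAP and TAZ, so that they are held in the cytoplasm or degraded. LATS2, AMOTL2 and AJUBA are also known as genes that YAP and TEAD switch on, which gives the pathway negative feedback. In kidney tubules, YAP and TAZ are known for roles in repair after injury and in fibrosis, where CCN2 (connective tissue growth factor) is a much used readout. Most control in this pathway acts on the proteins, through phosphorylation, location and turnover, and none of these was measured here.

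The promoter windows below were picked with the expression values known. CCN2 and ANKRD1 carry repeated TEAD motifs, LATS2 and AMOTL2 carry 1 each near the start, and AMOTL1 carries none. YAP1, lower in both treated groups, and AJUBA, not called between the treated groups, also hold 1 each and are not shown. A link between motif and expression was not tested. The windows are RefSeq sequences of GRCh38.p14, written 5′ to 3′ on the strand of the gene. They run from 250 bases before to 50 bases after a transcription start. Capitals mark GGAATG, or CATTCC where the motif lies on the opposite strand. The AMOTL2 window is the one of its 2 windows that holds a motif, and the other lies near the 5′ end of the gene. The AMOTL1 and AMOTL2 windows shown both belong to a start inside the span that the deposited table gives for the gene. No window covered the 5′ end of AMOTL1 or WWTR1, so those ends were not searched.
CCN2, chr6:131951323-131951622, minus strand: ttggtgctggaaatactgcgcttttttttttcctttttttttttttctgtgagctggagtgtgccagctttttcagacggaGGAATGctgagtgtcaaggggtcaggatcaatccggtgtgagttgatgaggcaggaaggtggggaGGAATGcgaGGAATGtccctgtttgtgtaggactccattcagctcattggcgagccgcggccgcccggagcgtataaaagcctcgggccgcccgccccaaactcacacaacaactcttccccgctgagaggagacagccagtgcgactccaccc
ANKRD1, chr10:90921038-90921337, minus strand: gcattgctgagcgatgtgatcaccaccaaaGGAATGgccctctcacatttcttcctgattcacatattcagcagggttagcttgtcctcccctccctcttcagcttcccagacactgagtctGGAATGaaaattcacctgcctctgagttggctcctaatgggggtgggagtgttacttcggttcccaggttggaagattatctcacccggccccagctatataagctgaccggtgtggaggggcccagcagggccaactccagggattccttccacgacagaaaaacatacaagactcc
LATS2, chr13:21061537-21061836, minus strand: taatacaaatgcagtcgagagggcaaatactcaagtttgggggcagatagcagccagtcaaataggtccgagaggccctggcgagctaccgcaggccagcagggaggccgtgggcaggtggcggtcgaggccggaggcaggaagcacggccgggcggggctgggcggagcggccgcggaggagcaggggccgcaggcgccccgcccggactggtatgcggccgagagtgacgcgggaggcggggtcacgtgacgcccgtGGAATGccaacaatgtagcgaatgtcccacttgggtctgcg
AMOTL2, chr3:134374398-134374697, minus strand: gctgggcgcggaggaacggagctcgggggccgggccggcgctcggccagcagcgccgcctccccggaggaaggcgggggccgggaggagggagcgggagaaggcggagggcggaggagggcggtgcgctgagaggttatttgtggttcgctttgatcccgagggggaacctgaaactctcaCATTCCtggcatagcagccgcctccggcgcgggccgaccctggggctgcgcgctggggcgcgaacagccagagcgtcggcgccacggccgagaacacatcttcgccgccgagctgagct
AMOTL1, chr11:94768106-94768405, plus strand: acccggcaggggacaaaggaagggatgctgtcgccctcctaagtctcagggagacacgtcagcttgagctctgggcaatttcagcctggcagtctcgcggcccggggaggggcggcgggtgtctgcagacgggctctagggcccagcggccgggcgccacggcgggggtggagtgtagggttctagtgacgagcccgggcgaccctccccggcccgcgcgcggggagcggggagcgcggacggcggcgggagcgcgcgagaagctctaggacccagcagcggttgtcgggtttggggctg

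The motif was searched on both strands, and none of the matches overlapped another. In CCN2 it began at bases -169, -104 and -95 from the start, all on the strand of the gene, and the last 2 are separated by a few bases. In ANKRD1 it began at -220 and -128, in LATS2 at 10, and in AMOTL2 at -69 on the opposite strand. YAP1 held 1 at -162 and the second AJUBA window 1 at -59. The 2 windows of WWTR1 held none, and CCN1 and TEAD1 had no window and were not searched. The WWTR1 windows and the second AJUBA window also belong to starts inside the span of the gene. The first AJUBA window, at the 5′ end of the gene, held none. In all, 8 of the 10 genes had a window, 6 of their 11 windows held a motif, and these lay in 6 genes. Among all 35116 windows of the same length, 14.0% held at least 1 motif, 1.37% at least 2, and 0.128% at least 3. Of 17 further genes known as YAP and TAZ targets, 12 had a window, and 5 of their 13 windows held a motif. A match is a description of these letters, and binding was not measured.

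**Figure D1:**
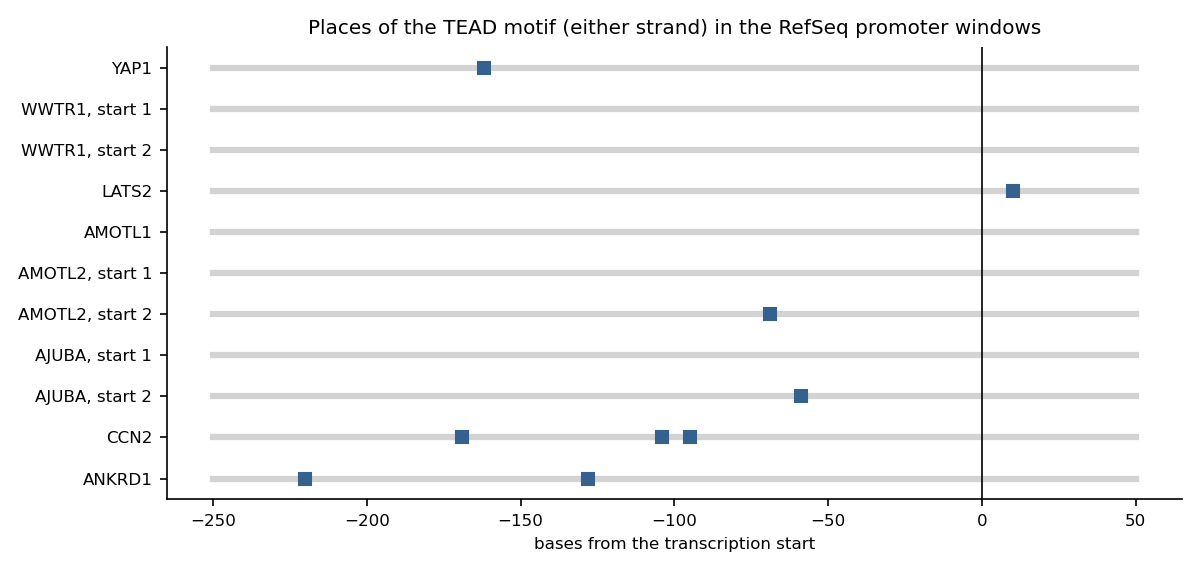
Places of the TEAD motif in the 11 RefSeq promoter windows of 8 genes. The x axis is the distance in bases from the transcription start, grey bars are the windows searched and squares are motifs on either strand. CCN2 has 3 squares and ANKRD1 has 2, while AMOTL1 and WWTR1 have none.

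Libraries held 10876572 to 14254786 counts. The MYDGF gene stood at 510.2 to 663 CPM (counts relative to the TMM-scaled library size) in the MYDGF group, against 74.2 to 105 CPM with aristolochic acid alone and 123 to 131 CPM in untreated cells. Of 17 epithelial and proximal tubule markers, 10 could be tested, and the list summed to 1416 to 1440.0 CPM with MYDGF, 1614 to 1740.4 CPM with aristolochic acid alone and 1098 to 1142 CPM in untreated cells. With aristolochic acid 8 of these 10 rose and 1 fell, where 59.0% of all genes were called. The one that fell was CDH1, the E-cadherin gene (-1.13, adjusted p = 1.94e-05), which was higher with MYDGF than without it (0.64, adjusted p = 0.00234). The largest rises with aristolochic acid on this list were those of CUBN (1.56, adjusted p = 0.000591) and AQP1 (1.35, adjusted p = 0.0279). The AQP1 call was lost when any of 4 libraries was left out. Keratin genes were well expressed (KRT18 at 518 to 537 CPM with MYDGF, 586 to 599 CPM with aristolochic acid alone and 368 to 375 CPM in untreated cells). The proximal tubule transporter gene SLC22A6 had 0 counts, and LRP2, SLC34A1, CDH2, PAX2 and PAX8 were too low to be tested. Of 10 fibroblast and mesangial markers, 3 could be tested, and the whole list summed to 27.1 to 31.9 CPM with MYDGF, 21.7 to 28.1 CPM with aristolochic acid alone and 15.1 to 18.8 CPM in untreated cells. Of 8 endothelial markers, 3 could be tested, and the list summed to 3.98 to 4.52 CPM with MYDGF, 8.02 to 13.8 CPM with aristolochic acid alone and 1.43 to 1.74 CPM in untreated cells, with EMCN at 0 in every library. PECAM1 made up much of it, at 1.48 to 2.83 CPM with MYDGF, 5.02 to 11.3 CPM with aristolochic acid alone and 0.475 to 0.671 CPM in untreated cells. The endothelial and the epithelial sums both had the order of ANKRD1, highest with aristolochic acid alone and lowest in untreated cells, and their part in any result below was not tested. In such bulk samples, fewer cells of a kind and less RNA per cell cannot be told apart.

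With aristolochic acid, 6 of the 10 genes rose, 1 fell and 3 did not pass the test. The test is edgeR's quasi-likelihood test with Benjamini-Hochberg adjustment over all 18267 genes, at a threshold of 0.05. The background was high: 59.0% of all genes were called, 29.7% higher and 29.3% lower. Libraries of the groups did not overlap for 8 of the 10 genes, against 65.9% of all genes. The median log2 fold change was 0.45 for the 10 genes and -0.01 for all genes. A share of 70.0% called among 10 genes lies near the background of all genes.

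With MYDGF added to aristolochic acid, 2 of the 10 rose against aristolochic acid alone, 3 fell and 5 did not pass, where 29.4% of all genes were called (14.7% higher and 14.7% lower). Groups did not overlap for 6 of the 10 genes, 3 higher and 3 lower, against 44.3% of all genes. The median was -0.06 for the 10 genes and 0.01 for all genes. Against untreated cells, 6 of the 10 were higher in the MYDGF group and 1 lower, where 51.1% of all genes were called (26.8% higher and 24.3% lower). Groups did not overlap there for 9 of the 10 genes, against 63.9% of all genes, and the median was 0.48 for the 10 genes and 0.02 for all genes. These comparisons share libraries, so each is given with its own values.

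**Figure D2:**
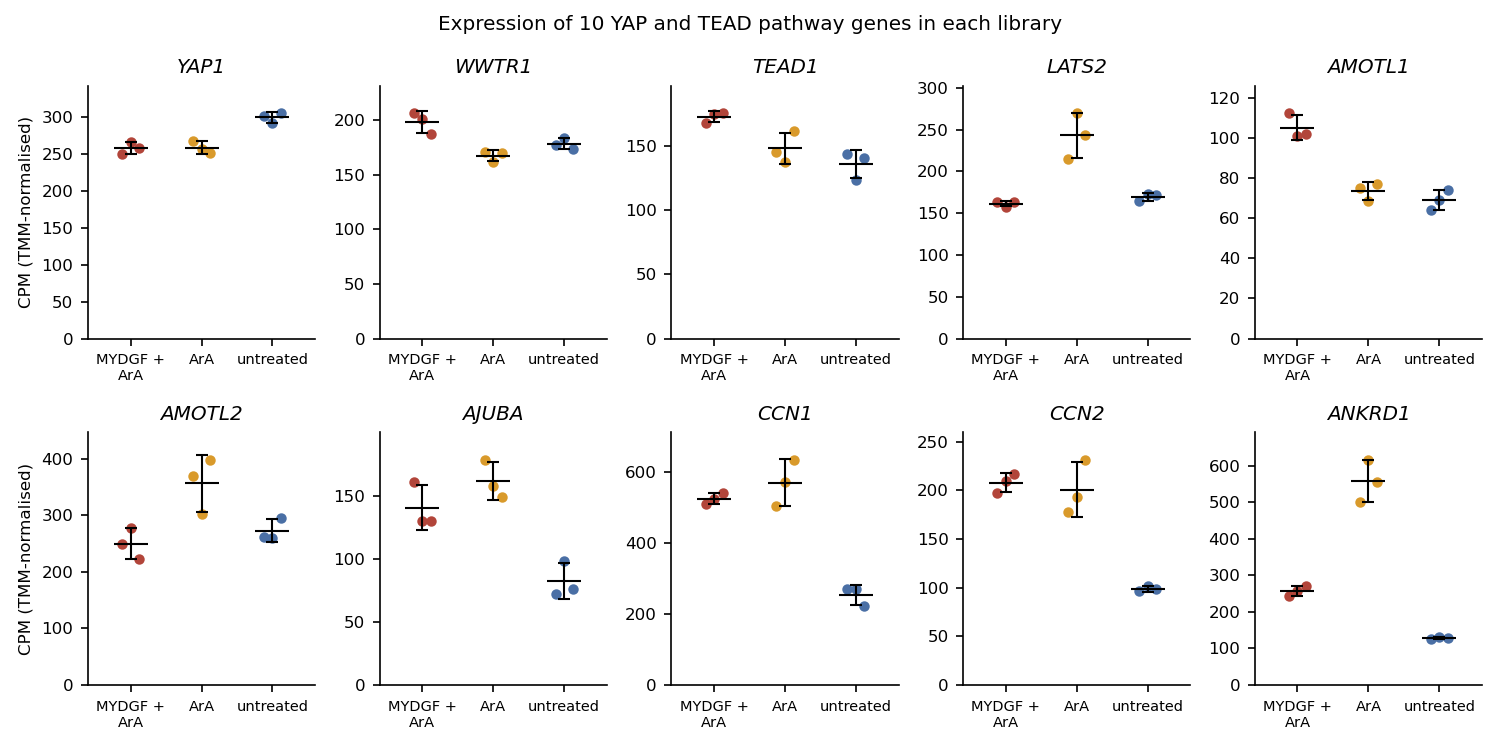
TMM-scaled CPM of the 10 genes in each of the 9 libraries (points), with the mean and SD of each group (black), for MYDGF with aristolochic acid (MYDGF + ArA), aristolochic acid alone (ArA) and untreated cells. ANKRD1 stands at 501 to 617 CPM in the aristolochic acid group, above both other groups, while CCN1 and CCN2 overlap in both treated groups.

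YAP1 (ENSG00000137693, chromosome 11, 102110447 to 102233424, plus strand) was lower in both treated groups, by a small amount. It stood at 251, 267 and 258 CPM with MYDGF and aristolochic acid, at 268, 257 and 252 CPM with aristolochic acid alone, and at 302, 292 and 306 CPM in untreated cells. All 6 treated libraries lay below all 3 untreated ones, and the treated groups overlapped. The log2 fold change was -0.21 for aristolochic acid against untreated (SE 0.0515, adjusted p = 0.00582) and -0.21 for the MYDGF group against untreated (SE 0.0515, adjusted p = 0.00694). Between the treated groups it was -0.00 (SE 0.0515, adjusted p = 0.977), with means of 259 ± 8.14 CPM with MYDGF and 259 ± 8.35 CPM without (SD, n = 3 each).

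WWTR1 (ENSG00000018408, chromosome 3, 149517235 to 149736714, minus strand) did not follow YAP1. It stood at 206, 201 and 187 CPM in the MYDGF group, at 170.4, 162 and 170.0 CPM with aristolochic acid alone, and at 178, 184 and 174 CPM in untreated cells. The 3 groups did not overlap, with MYDGF highest and aristolochic acid lowest. The MYDGF group was higher than aristolochic acid alone by 0.24 on the log2 scale (SE 0.0586, adjusted p = 0.0142), and the call was lost without MYDGF 1 (0.21, adjusted p = 0.0589). The log2 fold change was -0.09 for aristolochic acid against untreated (adjusted p = 0.207) and 0.15 for the MYDGF group against untreated (adjusted p = 0.0535), and neither passed. The antisense gene WWTR1-AS1 overlaps WWTR1 and had 259 counts over all libraries beside 20685 for WWTR1. Whether antisense reads entered the WWTR1 counts was not tested.

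The ratio of both coactivator genes, per length of their merged exons, was lowest in the MYDGF group. YAP1 stood over WWTR1 by 1.62, 1.77 and 1.85 times with MYDGF, by 2.10, 2.13 and 1.98 times with aristolochic acid, and by 2.28, 2.13 and 2.36 times in untreated cells. The log2 ratio differed by -0.25 between the MYDGF and aristolochic acid groups (SE 0.0637, exact two-sided permutation p = 0.1), the smallest p that 3 libraries against 3 allow. The difference was -0.37 between the MYDGF and untreated groups (exact permutation p = 0.1) and -0.12 between the aristolochic acid and untreated groups (exact permutation p = 0.2). Of the 12 such tests made on 4 ratios, none can therefore pass 0.05. The level of the ratio, unlike its differences between groups, depends on the gene lengths used: in the authors' FPKM, YAP1 had 16.8, 17.8 and 17.2 and WWTR1 17.2, 16.6 and 15.4 in the MYDGF libraries, so that YAP1 was the lower in MYDGF 1.

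TEAD1 (ENSG00000187079, chromosome 11, 12674421 to 12944737, plus strand) encodes a DNA-binding partner of YAP and TAZ. It stood at 167, 175 and 175 CPM with MYDGF, at 145, 138 and 161 CPM with aristolochic acid alone, and at 144, 124 and 141 CPM in untreated cells. The MYDGF libraries lay above all 6 others, which overlapped each other. TEAD1 was higher in the MYDGF group than in untreated cells by 0.34 on the log2 scale (SE 0.0800, adjusted p = 0.00610). Against aristolochic acid alone the difference was 0.22 (SE 0.0799, adjusted p = 0.0656), which passed only when aristolochic acid 6 was left out (0.28, adjusted p = 0.0475). For aristolochic acid against untreated it was 0.12 (adjusted p = 0.216).

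The other 3 TEAD genes all passed the test for aristolochic acid against untreated cells. TEAD3 stood at 15.01, 17.4 and 13.6 CPM with MYDGF, at 12.6, 8.19 and 8.28 CPM with aristolochic acid alone, and at 36.8, 35.7 and 35.7 CPM in untreated cells. It fell by 1.90 with aristolochic acid (SE 0.171, adjusted p = 2.48e-05) and was higher by 0.66 with MYDGF than with aristolochic acid alone (SE 0.171, adjusted p = 0.0190), a call lost without MYDGF 3, aristolochic acid 4 or aristolochic acid 6. TEAD2 fell by 0.93 with aristolochic acid (SE 0.154, adjusted p = 0.000690), whereas TEAD4 rose by 0.40 (SE 0.0838, adjusted p = 0.00254). TEAD4 was higher still with MYDGF, by 0.31 against aristolochic acid alone (SE 0.0827, adjusted p = 0.0217), and this call was lost when any of 4 libraries was left out. VGLL4, a cofactor that competes with YAP for TEAD, fell by 0.73 with aristolochic acid (SE 0.117, adjusted p = 0.000585). VGLL1, VGLL2 and VGLL3 were too low to be tested.

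Per length of merged exons, TEAD1 and TEAD4 were the leading TEAD genes in treated cells. TEAD1 made up 38.2, 36.3 and 37.5% of the summed TEAD level with MYDGF, 36.6, 40.0 and 41.9% with aristolochic acid, and 31.1, 27.4 and 30.1% in untreated cells. The share was higher in all 6 treated libraries than in untreated ones. Its log2 value differed by 0.42 between the aristolochic acid and untreated groups and by 0.34 between the MYDGF and untreated groups on merged exon lengths, and by 0.58 and 0.48 on the lengths behind the authors' FPKM (exact permutation p = 0.1 each). The summed TEAD level was 42.6, 46.9 and 45.5 CPM per kb with MYDGF, 38.6, 33.5 and 37.4 CPM per kb with aristolochic acid, and 45.0, 43.8 and 45.5 CPM per kb in untreated cells. The aristolochic acid libraries were the lowest of the 9 on this sum, which was not tested.

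**Figure D3:**
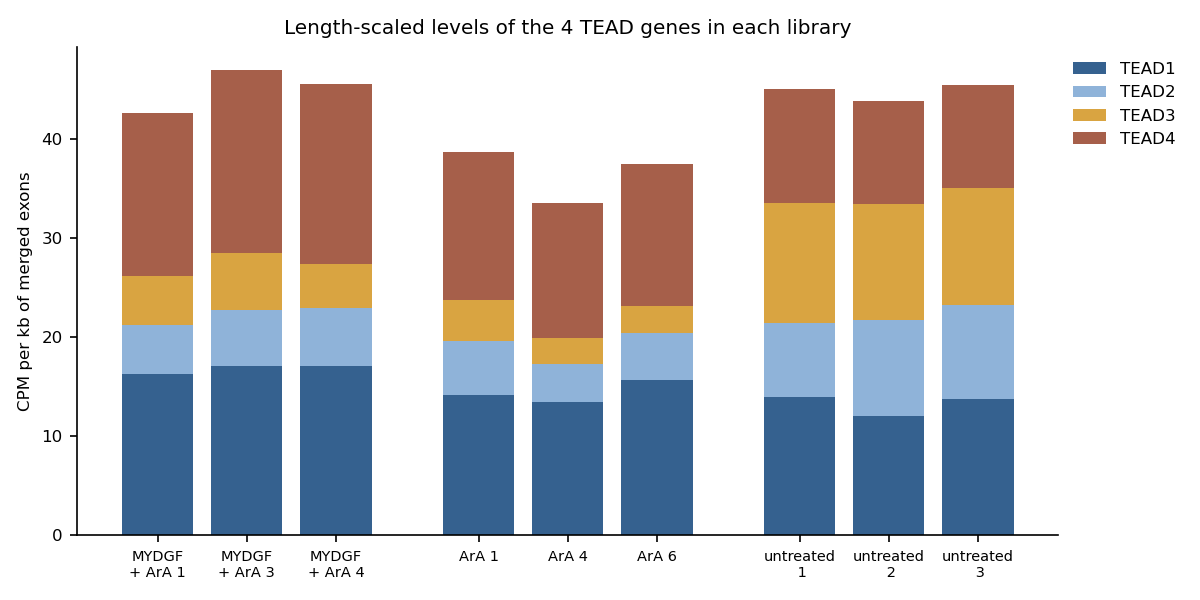
Length-scaled levels (CPM per kb of merged exons) of TEAD1, TEAD2, TEAD3 and TEAD4, stacked for each library. TEAD3 and TEAD2 take a larger part of the bar in the 3 untreated libraries than in the 6 treated ones, and the whole bar is shortest with aristolochic acid alone.

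LATS2 (ENSG00000150457, chromosome 13, 20973036 to 21061586, minus strand), the kinase gene that is also a known YAP target, was highest with aristolochic acid alone. It stood at 163, 158 and 164 CPM with MYDGF, at 215, 269.8 and 244 CPM with aristolochic acid alone, and at 164, 173 and 172 CPM in untreated cells. No aristolochic acid library overlapped either other group. LATS2 rose by 0.52 with aristolochic acid (SE 0.0793, adjusted p = 0.000441) and was lower by 0.59 with MYDGF than without it (log2 fold change -0.59, SE 0.0794, adjusted p = 0.00154). Against untreated cells the MYDGF group differed by -0.07 (SE 0.0793, adjusted p = 0.476). The related kinase gene LATS1 rose by 0.64 with aristolochic acid (SE 0.0920, adjusted p = 0.000301), and its difference with MYDGF of -0.29 (adjusted p = 0.0408) was lost when any of 7 libraries was left out. Per length, LATS2 exceeded LATS1 by 3.33, 3.63 and 3.59 times with MYDGF, by 4.39, 4.46 and 4.13 times with aristolochic acid, and by 4.76, 4.61 and 4.77 times in untreated cells. These groups did not overlap (exact permutation p = 0.1 for each pair of groups).

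AMOTL2 (ENSG00000114019, chromosome 3, 134355347 to 134375479, minus strand) and AMOTL1 (ENSG00000166025, chromosome 11, 94706431 to 94876748, plus strand) encode angiomotin-like scaffold proteins that bind YAP at cell junctions. AMOTL2 stood at 250.03, 277 and 223 CPM with MYDGF, at 369, 301 and 398 CPM with aristolochic acid alone, and at 262, 259 and 296 CPM in untreated cells. The aristolochic acid libraries were the 3 highest, and the other groups overlapped. AMOTL2 rose by 0.39 with aristolochic acid (SE 0.115, adjusted p = 0.0159), a call lost without untreated 1 (0.35, adjusted p = 0.0601) or untreated 2 (0.34, adjusted p = 0.0642). It was lower with MYDGF than with aristolochic acid alone, with a log2 fold change of -0.51 (SE 0.115, adjusted p = 0.0108).

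AMOTL1 went the other way with MYDGF. It stood at 112, 101 and 102 CPM with MYDGF, at 75.1, 68.4 and 77.1 CPM with aristolochic acid alone, and at 64.0, 69.0 and 74.1 CPM in untreated cells. The MYDGF libraries lay above the other 6, which overlapped each other. The log2 fold change was 0.52 against aristolochic acid alone (SE 0.0814, adjusted p = 0.00269) and 0.61 against untreated cells (SE 0.0814, adjusted p = 0.000305), while aristolochic acid against untreated gave 0.09 (adjusted p = 0.367). Per length, AMOTL1 stood at 0.268, 0.218 and 0.274 of AMOTL2 with MYDGF, at 0.121, 0.135 and 0.115 with aristolochic acid, and at 0.145, 0.159 and 0.149 in untreated cells. The log2 ratio was higher by 1.03 with MYDGF than with aristolochic acid alone (SE 0.126, exact permutation p = 0.1). The level of this ratio also depends on the lengths, since the authors' FPKM of MYDGF 1 was 10.5 for AMOTL1 and 16.8 for AMOTL2. The third family member, AMOT, was lower with MYDGF by a log2 fold change of -0.72 against aristolochic acid alone (SE 0.0812, adjusted p = 0.000913), at 16.8, 16.2 and 16.2 CPM with MYDGF against 27.4, 26.4 and 27.0 CPM.

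AJUBA (ENSG00000129474, chromosome 14, 22971177 to 22982551, minus strand) encodes a LIM protein that binds LATS kinases and restrains them. It stood at 161, 130.1 and 130.2 CPM with MYDGF, at 179, 157 and 149 CPM with aristolochic acid alone, and at 72.4, 98.4 and 76.4 CPM in untreated cells. All 6 treated libraries exceeded the untreated ones, and the treated groups overlapped. AJUBA rose by 0.97 with aristolochic acid (SE 0.135, adjusted p = 0.000249) and was higher by 0.77 in the MYDGF group than in untreated cells (SE 0.134, adjusted p = 0.00131). Between the treated groups the log2 fold change was -0.20 (SE 0.133, adjusted p = 0.282). Of its relatives, WTIP rose with aristolochic acid by 0.53 (adjusted p = 0.00384) and was lower with MYDGF (-0.90 against aristolochic acid alone, adjusted p = 0.00150). LIMD1 passed in none of the 3 comparisons.

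The target genes were among the 10 the ones with the largest rise under aristolochic acid, together with AJUBA. CCN1 (ENSG00000142871, chromosome 1, 85580761 to 85584589, plus strand), which encodes the secreted matricellular protein CYR61, stood at 511, 523 and 541 CPM with MYDGF, at 505, 571 and 635 CPM with aristolochic acid alone, and at 271, 269 and 222 CPM in untreated cells. CCN2 (ENSG00000118523, chromosome 6, 131948176 to 131951372, minus strand), its fibrosis-linked relative, stood at 197, 209 and 216 CPM with MYDGF, at 177, 193 and 232 CPM with aristolochic acid alone, and at 96.0, 102 and 98.2 CPM in untreated cells. For both genes the 6 treated libraries exceeded the untreated ones and the treated groups overlapped.

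CCN1 rose by 1.17 with aristolochic acid (SE 0.0991, adjusted p = 1.87e-05) and CCN2 by 1.02 (SE 0.0945, adjusted p = 2.80e-05). With MYDGF against aristolochic acid alone, the log2 fold change was -0.12 for CCN1 (SE 0.0976, adjusted p = 0.391) and 0.05 for CCN2 (SE 0.0931, adjusted p = 0.731), and neither passed. Against untreated cells the MYDGF group was higher by 1.048 for CCN1 (adjusted p = 4.61e-05) and by 1.07 for CCN2 (adjusted p = 3.30e-05). Both genes overlap no other annotated gene.

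ANKRD1 (ENSG00000148677, chromosome 10, 90912096 to 90921087, minus strand), a nuclear ankyrin repeat protein gene first known from stressed heart muscle, moved most of the 10 both with aristolochic acid against untreated cells and with MYDGF against aristolochic acid alone. It stood at 245, 258 and 272 CPM with MYDGF, at 501, 617 and 555 CPM with aristolochic acid alone, and at 126, 132 and 128 CPM in untreated cells. No group overlapped another. ANKRD1 rose 4.34-fold with aristolochic acid (log2 fold change 2.12, SE 0.0809, adjusted p = 2.42e-06). With MYDGF it stood at 0.463 of its level under aristolochic acid alone (log2 fold change -1.11, SE 0.0783, adjusted p = 0.000142). It was still 2.01-fold higher in the MYDGF group than in untreated cells (1.01, SE 0.0787, adjusted p = 1.92e-05).

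Per length, the ratio of ANKRD1 to CCN2 was 1.47, 1.46 and 1.48 with MYDGF, 3.34, 3.77 and 2.83 with aristolochic acid, and 1.55, 1.53 and 1.54 in untreated cells. The aristolochic acid libraries were the 3 highest. Between the MYDGF and untreated groups ANKRD1 differed 2.01-fold and CCN2 2.10-fold. The ratio is a description, since it was computed after the values were seen.

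**Figure D4:**
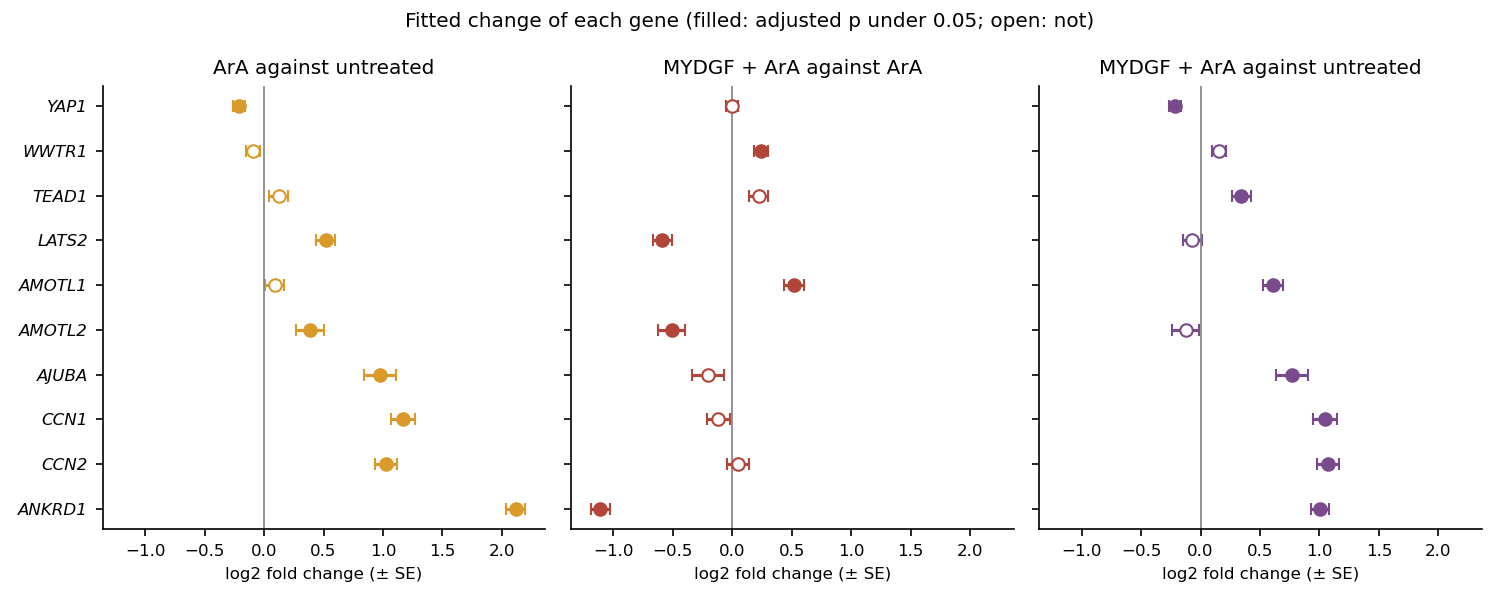
Fitted log2 fold change and SE of the 10 genes in each comparison, with filled points for an adjusted p under 0.05 and open points otherwise. AJUBA, CCN1, CCN2 and ANKRD1 lie near or above 1 for aristolochic acid against untreated, whereas only LATS2, AMOTL2 and ANKRD1 of the 10 are called lower when MYDGF is added.

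Levels of different genes were compared only per length. With aristolochic acid the order was ANKRD1 (282 ± 29.3 CPM per kb of merged exons), CCN1 (232 ± 26.5), CCN2 (85.8 ± 11.9), AMOTL2 (59.6 ± 8.32), LATS2 (43.5 ± 4.88), YAP1 (41.1 ± 1.33), AJUBA (27.0 ± 2.56), WWTR1 (19.9 ± 0.585), TEAD1 (14.4 ± 1.18) and AMOTL1 (7.33 ± 0.454; SD, n = 3 each). ANKRD1 and CCN1 were within their spread of each other in this group, though ANKRD1 was the higher in each of the 3 libraries, and LATS2 and YAP1 were also within their spread. With MYDGF, CCN1 led at 214 ± 6.07 CPM per kb and ANKRD1 followed at 130.4 ± 6.78, and in untreated cells CCN1 led at 103 ± 11.4 and ANKRD1 followed at 64.9 ± 1.51. On these lengths AMOTL1 was the lowest of the 10 in all groups, at 10.5 ± 0.625 with MYDGF and 6.88 ± 0.508 in untreated cells. The order depends on the lengths. In the authors' FPKM, TEAD1 (8.19, 8.49 and 8.49) was below AMOTL1 (10.5, 9.37 and 9.45) in the MYDGF libraries, LATS2 exceeded AMOTL2 in every library, and ANKRD1 led in every library, ahead of CCN2. The 10 genes together took 2264 to 2299 CPM with MYDGF, 2606 to 2872 CPM with aristolochic acid and 1679 to 1703 CPM in untreated cells.

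Of the 6 core Hippo kinases and adaptors, 2 rose and 3 fell with aristolochic acid (median -0.05; 59.0% of all genes called). With MYDGF 1 was higher and 2 lower than without it (median -0.15; 29.4% of all genes), and 2 were higher and 2 lower than in untreated cells (51.1% of all genes). STK3, the MST2 kinase gene, fell by 0.54 with aristolochic acid (SE 0.0743, adjusted p = 0.000244), and the LATS cofactor gene MOB1A fell by 0.30 (adjusted p = 0.00273). SAV1, which scaffolds the MST kinases, rose by 0.24 with aristolochic acid (adjusted p = 0.00636) and was lower with MYDGF (log2 fold change -0.34, adjusted p = 0.00381). MOB1B fell by 0.24 with aristolochic acid (adjusted p = 0.0330), a call lost when any of 5 libraries was left out. STK4, the MST1 gene, stood at 82.6, 82.4 and 29.1 CPM with MYDGF, at 37.7, 26.4 and 32.5 CPM with aristolochic acid alone and at 28.4, 29.8 and 29.4 CPM in untreated cells. Its call with MYDGF against aristolochic acid alone (1.01, SE 0.332, adjusted p = 0.0476) was lost when any of 8 libraries was left out, and MYDGF 4 did not share it. The STK4 call with MYDGF against untreated cells (1.15, SE 0.333, adjusted p = 0.0174) was lost without MYDGF 1, MYDGF 3 or untreated 1. MYDGF 4 lay within the range of the untreated libraries.

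Of 21 regulators upstream of the kinases that were tested, 9 rose and 3 fell with aristolochic acid (median 0.38), a number called that is near the 59.0% of all genes (29.7% higher and 29.3% lower). With MYDGF 3 were higher and 6 lower than with aristolochic acid alone (median -0.07), where 29.4% of all genes were called. NF2, the merlin tumour suppressor that recruits LATS to the membrane, stood at 109, 94.4 and 106 CPM with MYDGF, at 131, 136 and 143 CPM with aristolochic acid alone, and at 69.1, 71.1 and 73.0 CPM in untreated cells. It rose by 0.94 (SE 0.0722, adjusted p = 1.18e-05) and was lower with MYDGF (log2 fold change -0.41, adjusted p = 0.00407). FRMD6, a FERM domain partner of this module, likewise rose by 1.07 (SE 0.113, adjusted p = 5.90e-05) and was lower with MYDGF (log2 fold change -0.66, adjusted p = 0.00373). Among those that fell with aristolochic acid were MAP4K2 (-0.52, adjusted p = 0.000766) and MAP4K3 (-0.57, adjusted p = 0.00250), kinase genes that can act on LATS beside the MST kinases. In the MYDGF group against untreated cells, WWC3 was higher by 0.93 (SE 0.0872, adjusted p = 4.36e-05) and the atypical cadherin gene FAT1 by 0.76 (SE 0.135, adjusted p = 0.00146). Both also rose with aristolochic acid alone, WWC3 by 0.62 (adjusted p = 0.000285) and FAT1 by 0.93 (adjusted p = 0.000336). FAT4 was lower in the MYDGF group than in untreated cells (log2 fold change -0.40, adjusted p = 0.0176). That call was lost when MYDGF 1, MYDGF 3, untreated 2 or untreated 3 was left out. With aristolochic acid alone FAT4 differed from untreated cells by -0.34 (adjusted p = 0.0313), a call lost when any of 6 libraries was left out.

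Further YAP and TAZ target genes, 16 of 17 tested, rose in 9 cases and fell in 2 with aristolochic acid (median 0.33), where 59.0% of all genes were called (29.7% higher and 29.3% lower). With MYDGF 3 were higher and 2 lower than with aristolochic acid alone (median -0.01; 29.4% of all genes called). Against untreated cells 10 were higher and 3 lower in the MYDGF group (median 0.35), where 51.1% of all genes were called. AXL, a receptor tyrosine kinase gene, stood at 1275, 1200.3 and 1269 CPM with MYDGF, at 1219, 1289 and 1272 CPM with aristolochic acid alone, and at 708, 709 and 694 CPM in untreated cells. Like CCN1 and CCN2 it rose with aristolochic acid (0.84, SE 0.0440, adjusted p = 3.83e-06) and did not pass between the treated groups (-0.01, adjusted p = 0.840). NUAK2, a kinase gene that feeds back on LATS, rose by 1.17 (SE 0.0930, adjusted p = 1.41e-05) and was lower with MYDGF (log2 fold change -0.43, adjusted p = 0.00826), as ANKRD1, LATS2 and AMOTL2 were.

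GADD45A, also known as a target of p53, had the largest rise of the list, at 3.33 (SE 0.233, adjusted p = 8.27e-06), and its difference with MYDGF did not pass (-0.60, adjusted p = 0.0606). FJX1 (0.69, adjusted p = 0.00140) and NT5E, an ectonucleotidase gene (0.67, adjusted p = 0.00365), were higher with MYDGF than without it. F3, the tissue factor gene, was higher in the MYDGF group than in untreated cells by 1.58 (SE 0.143, adjusted p = 3.67e-05). It also rose by 1.04 with aristolochic acid alone (adjusted p = 0.000243). CRIM1 and CCDC80 fell with aristolochic acid, by 0.19 (adjusted p = 0.0102) and 0.86 (adjusted p = 0.00663), and the CRIM1 call was lost without untreated 3.

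CCN1, CCN2 and ANKRD1 are also known as genes that answer to SRF and its MRTF cofactors. Of 17 other SRF and MRTF targets tested, 8 rose and 3 fell with aristolochic acid (median 0.21), near the 59.0% of all genes called. With MYDGF 6 were higher and 1 lower than without it (median 0.25), where 29.4% of all genes were called (14.7% higher and 14.7% lower). MYL9, a myosin light chain gene, stood at 191, 264 and 227 CPM with MYDGF, at 121, 108 and 112 CPM with aristolochic acid alone, and at 403, 419 and 414 CPM in untreated cells. It fell by 1.86 with aristolochic acid (SE 0.107, adjusted p = 4.49e-06) and was higher by 1.001 with MYDGF than without it (SE 0.105, adjusted p = 0.000715), the opposite of ANKRD1 in both comparisons. FHL2, a LIM domain cofactor gene, rose by 0.87 with aristolochic acid (SE 0.0900, adjusted p = 5.21e-05), and SRF itself was higher with MYDGF than without it (0.48, SE 0.0600, adjusted p = 0.00127), at 189, 186 and 193 CPM against 138, 129 and 140.2 CPM. ACTA2, the smooth muscle actin gene, was higher in the MYDGF group than with aristolochic acid alone by 1.22 (SE 0.275, adjusted p = 0.0110) and than in untreated cells by 2.18 (adjusted p = 0.000334). ACTA2 also rose by 0.96 with aristolochic acid alone against untreated (SE 0.317, adjusted p = 0.0262). That call was lost without aristolochic acid 1, untreated 1 or untreated 2. VCL, the vinculin gene, fell by 0.71 with aristolochic acid (adjusted p = 0.0191). The actin crosslinker gene FLNC was lower with MYDGF than without it (log2 fold change -0.25, adjusted p = 0.0174), a call lost without MYDGF 3 or aristolochic acid 6. The tropomyosin gene TPM2 was lower in the MYDGF group than in untreated cells (log2 fold change -0.84, adjusted p = 0.00409). It was also lower with aristolochic acid alone (-0.60, adjusted p = 0.0178), a call lost without untreated 1.

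In STRIPAK, the phosphatase complex that opposes the MST kinases, 2 of 12 rose and 1 fell with aristolochic acid (59.0% of all genes called), with CTTNBP2NL up by 0.65 (SE 0.101, adjusted p = 0.000472). With MYDGF 2 were higher and 2 lower than with aristolochic acid alone (29.4% of all genes called), among them STRIP2 (0.79, adjusted p = 0.00196) and CTTNBP2NL (-0.59, adjusted p = 0.00365). SIKE1 was lower with MYDGF than without it (log2 fold change -0.37, adjusted p = 0.00754). STRN3 rose by 0.24 with aristolochic acid (adjusted p = 0.0336) and STRN4 was higher by 0.23 with MYDGF than without it (adjusted p = 0.0184), and leaving out single libraries ended each of these calls. Of 11 genes of the 14-3-3 proteins, casein kinases and ubiquitin ligase subunits that hold or degrade YAP, 2 rose and 1 fell with aristolochic acid, where 59.0% of all genes were called. With MYDGF 1 was higher and 1 lower than without it, where 29.4% of all genes were called. SFN, which encodes 14-3-3 sigma, was higher with MYDGF than without it by 0.29 (SE 0.0686, adjusted p = 0.0127), having risen by 0.53 with aristolochic acid (adjusted p = 0.000181). CSNK1E fell by 0.42 with aristolochic acid (adjusted p = 0.00250) and YWHAG rose by 0.23 (adjusted p = 0.00171). BTRC, a ubiquitin ligase subunit gene, was lower in the MYDGF group than in untreated cells (log2 fold change -0.42, adjusted p = 0.00154), and so was YWHAE (-0.39, adjusted p = 0.0109), whose call was lost without untreated 3.

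**Figure D5:**
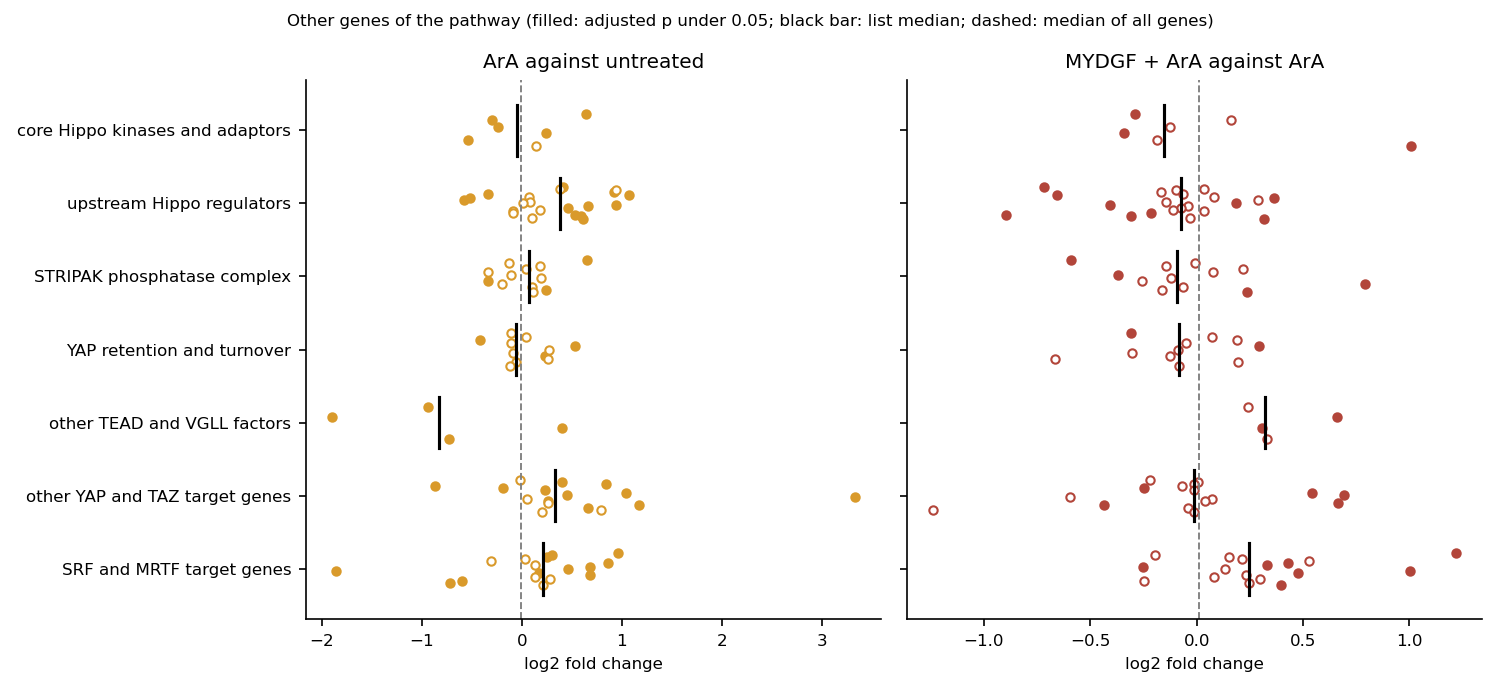
Fitted log2 fold change of the tested genes of 7 lists for aristolochic acid against untreated (left) and MYDGF with aristolochic acid against aristolochic acid alone (right), with filled points for an adjusted p under 0.05. Black bars are list medians and the dashed line is the median of all genes. Upstream regulators and further target genes have medians of 0.38 and 0.33 on the left and of -0.07 and -0.01 on the right.

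The genes most like 4 of the 10 over the 9 libraries were found by the root mean square difference of log2 CPM centred on each gene, among tested genes with a symbol. Nearest to ANKRD1 were the chemokine gene CXCL2 (0.133), N4BP2L1 (0.147) and TBX19 (0.171). CXCL2 averaged 54.4 CPM with MYDGF, 128 CPM with aristolochic acid and 29.4 CPM in untreated cells, so that its log2 fold changes were 2.13 for aristolochic acid against untreated and -1.24 for MYDGF added to it. Nearest to CCN1 were ZC3H8 (0.0876), ATAD2B (0.0915) and WDR62 (0.0929), and nearest to CCN2 were the mitochondrial chaperone gene HSPA9 (0.0860), MMS22L (0.0941) and CCDC86 (0.0944). Nearest to AMOTL2 were ZSCAN9 (0.0979), PTPN21 (0.108) and MNAT1 (0.116). None of these 12 genes is on the lists above, and none is another of the 10.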

How the data were processed

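Raw counts and FPKM values stand side by side in the table that the authors deposited, as its file headers name them, and the counts are whole numbers. The submitters' processing notes name edgeR, HISAT2, CASAVA 1.8 and SAMtools 1.3.1, with mm10, a mouse build, as the genome. The table lists human Ensembl IDs, of which 92.9% are in GENCODE 29, and 99.9% of those overlap that gene's GRCh38 position, so positions are read as GRCh38. Which counter, annotation and strand setting were used is not given in the sources used. Counts were tested with edgeR 4.0.16 in R 4.3.3: TMM scaling, filterByExpr (minimum count 10, minimum total 15), a 3-level group factor over all 9 libraries, glmQLFit and glmQLFTest, with 6 residual degrees of freedom, and Benjamini-Hochberg adjustment within a comparison. The biological coefficient of variation was 16.4%. Simulated data with known changes were used to check the fit. The lengths behind the authors' FPKM exceeded the whole genomic span for 10.3% of tested genes (9434 bp for CCN1, which spans 3829 bp), so levels between genes are CPM per kb of merged GENCODE 29 exons, a choice made after seeing the data. Ratios were tested with exact permutation tests in scipy 1.17.1. DESeq2 1.42.0, other scalings and filters, the compared libraries alone, a replicate block and leaving out each library were the alternatives. The 10 genes and the lists were chosen with earlier results of these data known. Genes named from lists are the core kinases and adaptors, the TEADs and VGLLs that pass the filter, and the 2 largest changes in each direction among those past the threshold, by list and comparison, with markers given mostly as sums and 1 gene under this rule not reported here. AXL, SRF, LIMD1, KRT18, YWHAB, YWHAH and PPP2CA are outside this rule and were chosen after their values were seen. Protein sequences were not used here.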

Additional observations from a re-analysis of the deposited data

How the results depend on the processing

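Over scalings, filters, DESeq2, the compared libraries alone and leaving out each library, the calls of CCN1, CCN2, ANKRD1, AJUBA, LATS2, AMOTL1, TEAD1 and YAP1 kept their direction and their side of the threshold wherever they had passed, and the exceptions were AMOTL2 and WWTR1, given in the report. YAP1 between the treated groups changed sign around 0, with 0.00937 without a filter, 0.00308 with the compared libraries alone and -0.0325 to 0.0229 when a library was left out. CCN2 between the treated groups ran from -0.0337 (without aristolochic acid 1) to 0.15. For MYDGF against untreated, WWTR1 passed under 9 settings (adjusted p = 0.0305 to 0.0478). When a library was left out, the count of the 10 higher with MYDGF than with aristolochic acid alone ran from 1 (without MYDGF 1) to 3, and all genes lower ran from 1678 (without MYDGF 3) to 3462. Libraries share numbers, and nothing states whether a number marks a shared culture or batch. Correlations of deviations from the group mean ran from -0.16 to 0.02 for same-numbered libraries and from -0.14 to 0.18 for the others. With so few pairs these values cannot decide whether the numbers pair the libraries. In a fit with these numbers as a replicate block, numbers 2 and 6 each occur in 1 library. Untreated 2 and aristolochic acid 6 therefore add nothing to the differences it estimates, and the fit leaves 2 residual degrees of freedom. It called 2652 genes higher and 2410 lower for aristolochic acid against untreated, with 0 of the 10 lower. It called 8 higher and 6 lower for MYDGF against aristolochic acid, with 0 of the 10 higher and 1 lower (ANKRD1). It called 2909 higher and 2537 lower for MYDGF against untreated, with 0 of the 10 lower. The block ended the calls of LATS2 (adjusted p = 0.0727), AMOTL1 (0.0837), AMOTL2 (0.0691) and WWTR1 (0.144) between the treated groups, of YAP1 against untreated in both (0.195 with aristolochic acid, 0.0857 with MYDGF) and of TEAD1 for MYDGF against untreated (0.0650). Many calls of list genes ended too. Between the treated groups no list gene kept its call, with MYL9 at 0.0691, NUAK2 at 0.119 and TEAD3 at 0.144. For aristolochic acid against untreated the calls that ended included TEAD2 (0.0814), TEAD4 (0.127), VGLL4 (0.0661), SAV1 (0.284) and MOB1A (0.124). TEAD3, LATS1 and NF2 kept theirs in that comparison. Under the block TEAD1 for aristolochic acid against untreated was -0.00102 and CCN1 between the treated groups was 0.0155. The cause of these changes was not tested. All ratios kept their direction. With 3 libraries a group, WWTR1 and TEAD1 between the treated groups each crossed the threshold when a single library was left out. These were MYDGF 1 for WWTR1 and aristolochic acid 6 for TEAD1.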

Other observations

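Single libraries stood apart in genes of the wider pathway. YWHAB, a 14-3-3 gene, stood at 122 CPM in untreated 3, against 346 and 355 CPM in the other untreated libraries and 305 to 338 CPM in the treated ones. YWHAH, another 14-3-3 gene, stood at 66.5 and 68.3 CPM in MYDGF 1 and 4, against 214 CPM in MYDGF 3 and 122 to 195 CPM in the libraries of both other groups. PPP2CA, the catalytic phosphatase subunit of STRIPAK, ran from 119 to 357 CPM within the aristolochic acid group.

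The order of CCN1 and CCN2 depends on the gene length used. Per kb of merged exons CCN1 stood at 2.47, 2.38 and 2.38 times CCN2 with MYDGF, at 2.71, 2.81 and 2.61 times with aristolochic acid and at 2.68, 2.52 and 2.15 times in untreated cells. In the authors' FPKM, with 9434 bp for CCN1 and 2338 bp for CCN2, CCN1 is the lower of both genes. Changes between groups are not touched by this.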
